A study of Homo sapiens with 6 samples.

Results

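Interferon-stimulated genes (ISGs) are the genes that cells switch on when interferon binds its receptor, and a low tonic level of many of them is present without infection. The set described here was 48 ISGs chosen by gene symbol from 15379 rows of a gene count table, and 48 of the 48 had a row. The cells were HaCaT, a spontaneously immortalised line of human skin keratinocytes, so each library comes from 1 line and not from different donors. The control group, 37C, was held at 37C for 1 h per day on 3 days (3 libraries), and the heat group, 41C, was held at 41C on the same schedule (3 libraries). The labels name no genetic change, interferon or virus for either group. The time of RNA collection after the exposures is not stated, nor that the replicates were separate cultures. The p-values therefore measure only the spread between these libraries, which may be technical.

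Type I and type III interferons bind receptors that are coupled to the kinases JAK1 and TYK2. These kinases phosphorylate STAT proteins, among them STAT2, which joins IRF9 in the complex ISGF3. ISGF3 binds the interferon-stimulated response element (ISRE) in ISG promoters, whereas type II interferon acts through the gamma-activated site (GAS). The products detect viral nucleic acid, block translation and entry, or modify other proteins, and keratinocytes use them as a barrier defence at the skin surface.

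Promoter windows are printed for a few members that held the letters of either element. Of the 15 members with an unadjusted p under 0.05, 10 were matched by symbol in the set of RefSeq promoters used. Of these, 6 held a match to the letters (IFIT1, IFIT3, LGALS3BP, IFITM1, IRF1 and IRF9). The other 4, ADAR, PARP9, CMPK2 and UBE2L6, held neither string of letters in the 250 bases searched. Windows are also given for IFIT5, a neighbour of IFIT1 with another pattern, and for ISG15, the ubiquitin-like modifier of the family. Each run is read 5′ to 3′ on the gene's own strand from RefSeq (build GRCh38.p14), ends before the start of transcription in RefSeq, and has the matched letters in capitals. For the first 6 lines the motif is the core of the ISRE (GAAA, any pair of bases, then GAAA) or its reverse complement, and for the last 2 it is the GAS, TTCNNNGAA.
IFIT1: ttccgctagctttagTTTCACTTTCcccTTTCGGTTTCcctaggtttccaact
IFIT3: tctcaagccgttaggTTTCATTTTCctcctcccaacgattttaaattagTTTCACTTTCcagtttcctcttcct
IFIT5: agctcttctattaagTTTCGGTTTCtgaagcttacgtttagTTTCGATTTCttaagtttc
IFITM1: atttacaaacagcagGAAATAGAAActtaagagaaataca
ISG15: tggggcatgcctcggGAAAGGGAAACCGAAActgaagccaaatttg
LGALS3BP: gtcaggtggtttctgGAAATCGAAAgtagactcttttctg
IRF1: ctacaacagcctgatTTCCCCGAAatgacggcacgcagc
IRF9: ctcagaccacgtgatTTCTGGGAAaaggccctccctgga

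These windows lie at chr10:89392492-89392544 (IFIT1, plus strand), chr10:89327826-89327899 (IFIT3, plus), chr10:89414508-89414567 (IFIT5, plus), chr11:313985-314024 (IFITM1, plus), chr1:1013369-1013414 (ISG15, plus), chr17:78979957-78979996 (LGALS3BP, minus), chr5:132490874-132490912 (IRF1, minus) and chr14:24161187-24161225 (IRF9, plus). In the set of RefSeq promoters used, 38 of the 48 genes were matched by symbol, and the first promoter listed for each was searched. The shares over all promoters count every promoter listed and were not reduced to 1 per gene. In the 250 bases before the start, 19 of these 38 (50%) held the ISRE core on either strand, beside 3.02% of all 35116 promoters in the table. The GAS letters stood in 8 of the 38 (21.1%), beside 6.57% of all promoters. A match describes the letters only, and overlapping matches, as in ISG15, were joined in 1 run. The absence of a match in these 250 bases does not show that a gene lacks the element.

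After daily exposure to 41C, 2 of the 45 testable ISGs passed the threshold, and both fell. They were TRIM22, a ubiquitin ligase that restricts retroviruses, and IFIT1, which binds viral RNA that lacks the host's cap methylation. None passed in the other direction (0 genes, with 3 at an unadjusted p under 0.05). The threshold was an adjusted p of 0.05 in edgeR's quasi-likelihood test over the 12056 genes tested. Of those genes 1.09% were called in either direction, 0.265% lower and 0.821% higher at 41C. In bulk RNA, fewer cells with a transcript and less transcript per cell cannot be told apart. At an unadjusted p under 0.05, 12 of the 45 were lower (26.7%, beside 6.12% of all genes tested) and 3 were higher (6.67%, beside 7.58%). All 3 heated libraries lay below all 3 controls for 9 of the 45, beside 8.84% of all genes, and above them for 3, beside 11.2%. A negative log2 change was seen in 32 of the 45 (71.1%), beside 49.1% of all genes. The median log2 change was -0.10, beside 0.0023 over all genes tested. These counts describe the members that passed the filter on low counts, and no test was made over the list.

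**Figure D1:**
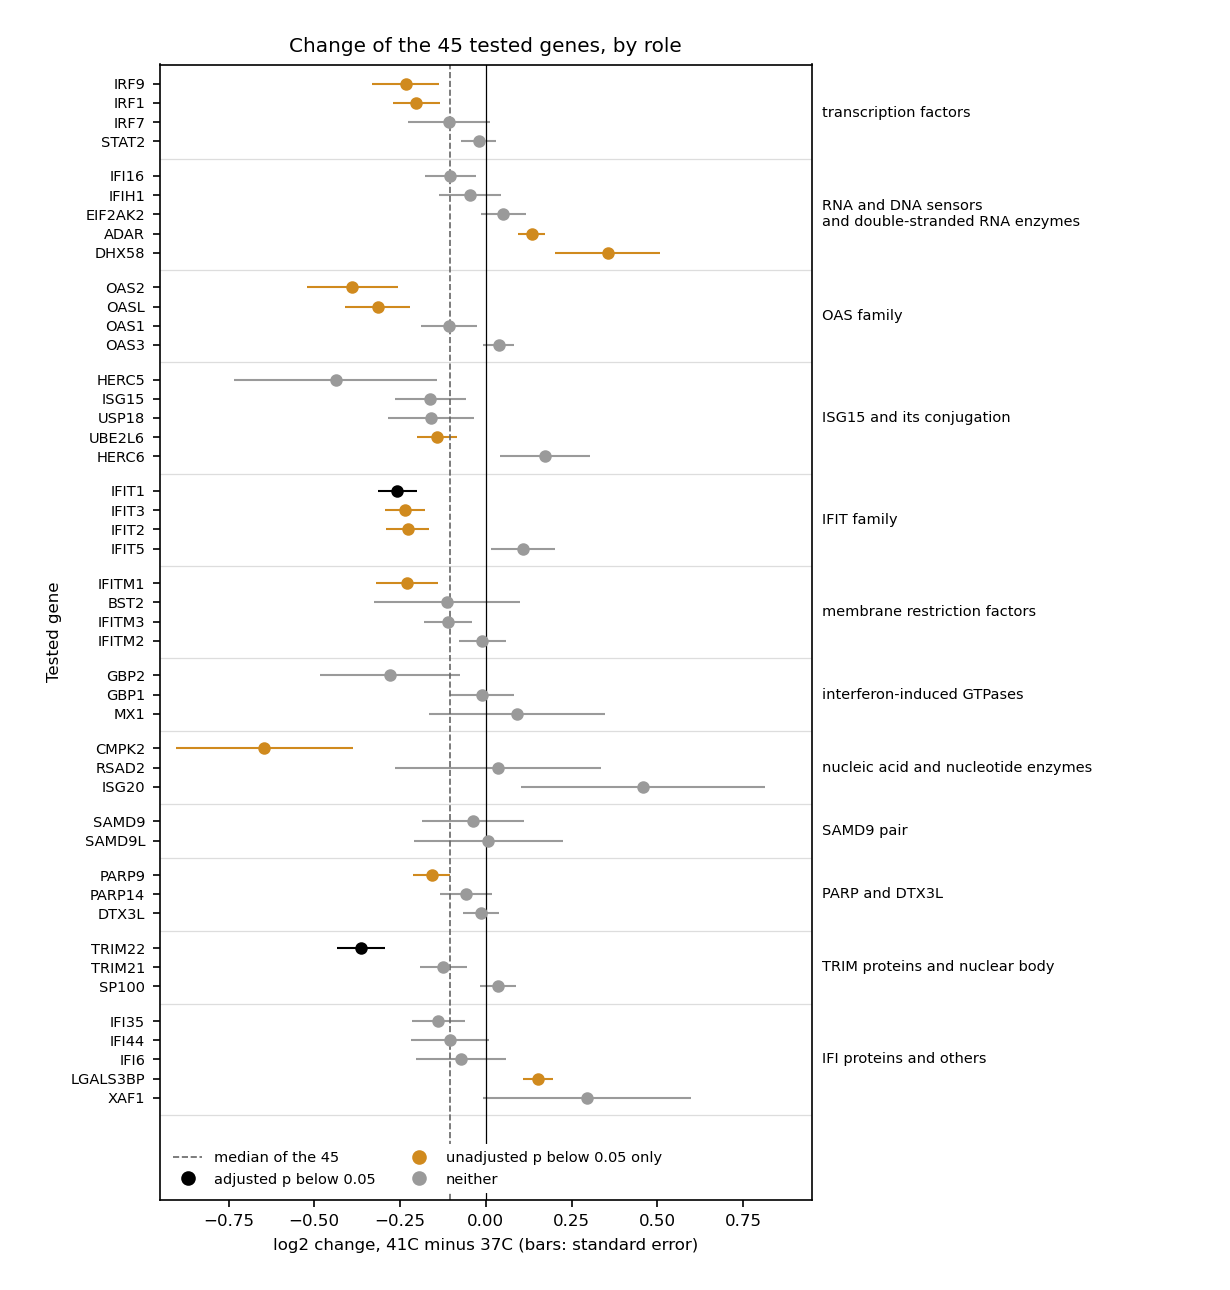
Log2 change at 41C relative to 37C (horizontal axis) for each of the 45 testable ISGs, grouped by role, with standard errors as bars; black points passed the adjusted threshold, orange points had only an unadjusted p under 0.05, and the dashed line is the median of the 45. TRIM22 (-0.36) and IFIT1 (-0.26) are the only black points, and 35 of the 45 points lie within 0.25 of 0.

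TRIM22 had 86.7, 99.3 and 79.9 CPM (counts per 1e+06, scaled between libraries) at 37C and 68.3, 67.7 and 70.5 CPM at 41C. All 3 heated libraries lay below all 3 controls, and the heated libraries were close together while the controls were spread. Its level went from 88.6 ± 9.82 to 68.8 ± 1.44 CPM (SD, n = 3; log2 change -0.36 ± 0.07, SE; edgeR adjusted p = 0.0205), to 0.777 of the control level. TRIM22 lies at chr11:5689689-5737089 on the plus strand (GENCODE 29, GRCh38), where TRIM5 overlaps it on the other strand, but the annotated exons of the pair share 0 bases. TRIM5, a related restriction factor, went from 83.8 ± 3.24 to 82.0 ± 3.00 CPM, a log2 change of -0.03 ± 0.06 (adjusted p of edgeR 0.857). Without 37C replicate 2, the control with the most TRIM22, the log2 change was -0.28 (edgeR adjusted p = 0.139).

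The other members of that role did not pass. TRIM21, a cytosolic antibody receptor and ubiquitin ligase, had a log2 change of -0.12 ± 0.07. SP100, a component of PML nuclear bodies, had 77.9, 76.0 and 76.0 CPM at 37C and 77.4, 78.9 and 79.3 CPM at 41C (edgeR adjusted p = 0.826). The groups of SP100 overlapped.

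The IFIT genes encode RNA-binding proteins that stop translation of viral messages, and 4 of them lie side by side between 89283694 and 89421001 on chromosome 10. IFIT1 had 73.0, 73.2 and 67.6 CPM at 37C and 60.1, 60.1 and 58.5 CPM at 41C. The groups did not overlap, and IFIT1 fell by 0.26 ± 0.06 on the log2 scale (71.3 ± 3.20 to 59.6 ± 0.927 CPM; SD, n = 3; edgeR adjusted p = 0.0386). IFIT2, which acts in a complex with IFIT1 and IFIT3, had 113, 121 and 103 CPM at 37C and 101, 92.3 and 93.5 CPM at 41C (log2 change -0.23 ± 0.06, edgeR adjusted p = 0.0927). IFIT3, which stabilises IFIT1 on RNA, had 118, 124 and 109 CPM at 37C and 104, 94.0 and 100.2 CPM at 41C (log2 change -0.23 ± 0.06, edgeR adjusted p = 0.0672). In both genes every heated library lay below every control, and neither gene passed the threshold. IFIT5, at the end of the same cluster, showed another pattern, with 36.5, 32.6 and 28.2 CPM at 37C and 38.3, 34.4 and 32.2 CPM at 41C (log2 change 0.11 ± 0.09). Its groups overlapped, and the difference between IFIT5 and its neighbours was not tested.

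IFIT1, IFIT2 and IFIT3 lie within the span annotated for LIPA, the lysosomal acid lipase gene, on the opposite strand. The labels and headers do not state whether counting used strand. Annotated exons of LIPA share 0 bases with those of IFIT1 and IFIT3 and 65 bases with those of IFIT2. LIPA itself had 391, 422 and 419 CPM at 37C and 364, 369.9 and 379.8 CPM at 41C, a log2 change of -0.14 ± 0.04 (edgeR adjusted p = 0.132). Its part in the IFIT values was not tested.

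**Figure D2:**
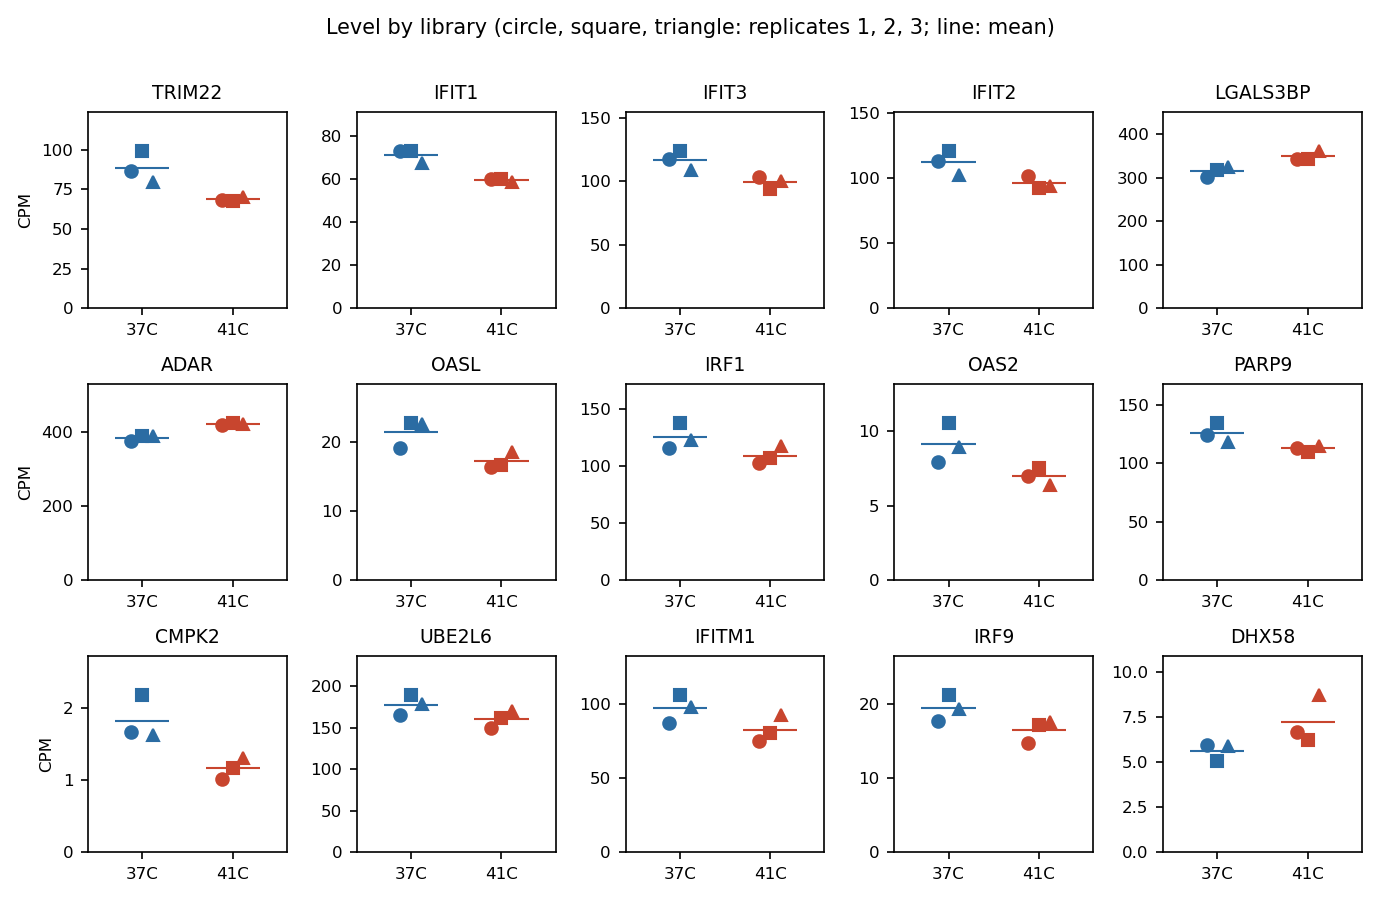
CPM in each library (vertical axes start at 0) for the 15 ISGs with an unadjusted p under 0.05, in order of p, with 37C in blue, 41C in red, replicates 1, 2 and 3 as circle, square and triangle, and the mean as a line. IRF1, UBE2L6 and IFITM1 overlap between the temperatures, and the other panels do not. The square at 37C is the highest point in 12 of the 15 panels. These 12 are the genes that were lower at 41C, so a high control is part of how they were picked.

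Among the transcription factors, 0 of 4 passed (edgeR, with 0 higher and 2 lower at an unadjusted p under 0.05) and 4 of 4 had a negative log2 change. The shares over all genes tested were 6.12% lower at that p and 49.1% negative, and 4 genes are too few to set against them. IRF1, a transcriptional activator induced by type II interferon, had 116, 138 and 122 CPM at 37C and 103, 107 and 117 CPM at 41C. The highest heated library of IRF1 lay just above the lowest control (log2 change -0.20 ± 0.07, edgeR adjusted p = 0.191). IRF9, the DNA-binding subunit of ISGF3, had 17.7, 21.2 and 19.2 CPM at 37C and 14.8, 17.1 and 17.6 CPM at 41C. The IRF9 groups were separated by a narrow gap (log2 change -0.23 ± 0.10, edgeR adjusted p = 0.300). STAT2, its partner in ISGF3, had 86.3, 89.5 and 87.6 CPM at 37C and 83.9, 88.8 and 86.8 CPM at 41C, and the groups of STAT2 overlapped almost fully. IRF7, which amplifies interferon production, had a log2 change of -0.11 ± 0.12.

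The 2'-5'-oligoadenylate synthetases make the second messenger that activates RNase L, and OASL is a relative without that activity. OAS2 had 7.93, 10.5 and 8.91 CPM at 37C and 6.96, 7.52 and 6.40 CPM at 41C (log2 change -0.39 ± 0.13, edgeR adjusted p = 0.191). OASL had 19.0, 22.7 and 22.5 CPM at 37C and 16.4, 16.6 and 18.6 CPM at 41C (log2 change -0.31 ± 0.09, edgeR adjusted p = 0.128). Every heated library of OAS2 and of OASL lay below every control, and neither passed. OAS3, the most abundant of the 4 per gene length (27.7 FPKM at 37C), had 177, 186 and 184 CPM at 37C and 188, 181 and 192 CPM at 41C (log2 change 0.04 ± 0.05). OAS1 had 31.2, 37.9 and 34.2 CPM at 37C and 33.4, 29.8 and 32.8 CPM at 41C, with overlapping groups. OAS1, OAS2 and OAS3 are neighbours on chromosome 12, and their log2 changes of -0.11, -0.39 and 0.04 did not share 1 sign.

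The sensors and double-stranded RNA enzymes included 2 of the 3 members that were higher at an unadjusted p under 0.05. ADAR, which edits adenosine to inosine in double-stranded RNA, had 377, 389.7 and 389.6 CPM at 37C and 421, 426 and 422 CPM at 41C. Its groups were far apart compared with their spread, but the difference was small and did not pass (1.10-fold; log2 change 0.13 ± 0.04, edgeR adjusted p = 0.126). DHX58, a regulator of the RNA helicase sensors, had 5.92, 5.06 and 5.88 CPM at 37C and 6.67, 6.21 and 8.71 CPM at 41C (log2 change 0.36 ± 0.15, edgeR adjusted p = 0.310). One heated library, replicate 3, carried much of that difference.

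IFI16, a sensor of DNA, had 293, 313 and 249 CPM at 37C and 273, 267 and 255 CPM at 41C, and its groups overlapped. EIF2AK2, the kinase PKR that halts translation, and IFIH1, the RNA sensor MDA5, had log2 changes of 0.05 ± 0.07 and -0.05 ± 0.09. With 37C replicate 3 left out, IFI16 was called lower (log2 change -0.19, edgeR adjusted p = 0.00520) and ADAR higher (log2 change 0.14, edgeR adjusted p = 0.0252). In that fit 2.65% of all genes were called lower and 3.97% higher, beside 0.265% and 0.821% with all libraries.

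ISG15 is a ubiquitin-like protein, UBE2L6 is its conjugating enzyme, HERC5 is its main ligase and USP18 removes it. ISG15 had 15.9, 21.1 and 19.3 CPM at 37C and 16.2, 17.2 and 17.0 CPM at 41C. The lowest ISG15 value of all was a control, so the groups overlapped (log2 change -0.16 ± 0.10, edgeR adjusted p = 0.525). UBE2L6 had 165, 189.5 and 179 CPM at 37C and 149.9, 162 and 171 CPM at 41C (log2 change -0.14 ± 0.06, edgeR adjusted p = 0.296). HERC5 rested on 83 counts over the controls and 63 over the heated libraries (log2 change -0.44 ± 0.30). HERC6, its neighbour on chromosome 4, and USP18 had log2 changes of 0.17 ± 0.13 and -0.16 ± 0.13. Of the 50-base stretches of the USP18 transcript, 23.0% also occur in a transcript of USP41, which had 1 count in all, so the USP18 value is uncertain.

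The proteins of the cell membrane that block entry or release of viruses spanned a wide range per gene length, from IFITM3 and IFITM1, the members with the most FPKM at 37C, to BST2 with 2.84 FPKM. IFITM3, which blocks fusion in endosomes, had 419, 481 and 457 CPM at 37C and 389, 406 and 463 CPM at 41C (log2 change -0.11 ± 0.07). IFITM1 had 86.9, 106 and 97.7 CPM at 37C and 74.7, 80.3 and 92.6 CPM at 41C (log2 change -0.23 ± 0.09, edgeR adjusted p = 0.298). In both genes 37C replicate 2 was the highest library, and the groups overlapped. IFITM2 had a log2 change of -0.01 ± 0.07 and BST2, which tethers budding virus, one of -0.11 ± 0.21. The 3 IFITM genes are similar in sequence, with 42.3% of the 50-base stretches of the IFITM1 transcript, 17.9% of IFITM3 and 10.4% of IFITM2 also found in another gene. Their separate values are therefore uncertain, and their sum was 619 ± 41.0 CPM at 37C and 571 ± 55.3 CPM with heat (log2 change -0.12 ± 0.07, edgeR adjusted p = 0.526).

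Of the interferon-induced GTPases, GBP1 had 23.0, 28.3 and 22.03 CPM at 37C and 24.9, 23.3 and 24.5 CPM at 41C (log2 change -0.01 ± 0.09). GBP2 had 4.82, 7.03 and 5.62 CPM at 37C and 3.36, 5.92 and 5.14 CPM at 41C (log2 change -0.28 ± 0.20). Both are guanylate-binding proteins that coat vacuoles of pathogens, and in both the groups overlapped. MX1, which traps viral ribonucleoprotein, was scarce, with 144 counts over the controls and 158 over the heated libraries (log2 change 0.09 ± 0.26). MX2 had 2 and 4 counts, a ratio of 1.91 (95% counting interval 0.27 to 21.16), and a difference was not detectable at this depth.

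CMPK2, a mitochondrial nucleotide kinase, was counted 33, 43 and 32 times in the controls and 21, 24 and 26 times after heat. Its groups did not overlap (1.82 ± 0.310 against 1.16 ± 0.151 CPM; SD, n = 3; log2 change -0.65 ± 0.26), but the adjusted p of edgeR was 0.280. RSAD2, which encodes the antiviral enzyme viperin, lies beside CMPK2 on chromosome 2 and had 27, 27 and 17 against 28, 18 and 29 counts (log2 change 0.04 ± 0.30). The exons of this pair share 14 bases. ISG20, an RNA exonuclease, had 38 counts over the controls and 54 over the heated libraries (log2 change 0.46 ± 0.36).

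SAMD9 and SAMD9L, neighbouring restriction factors on chromosome 7, differed more among controls than between temperatures. SAMD9 had 84.3, 84.6 and 57.5 CPM at 37C and 72.9, 75.9 and 71.98 CPM at 41C. SAMD9L had 15.4, 17.4 and 9.12 CPM at 37C and 14.5, 12.8 and 14.7 CPM at 41C. In both, 37C replicate 3 was the lowest library of all, and without it SAMD9 was called lower at 41C (log2 change -0.20, edgeR adjusted p = 0.0177). In that fit 2.65% of all genes were called lower, beside 0.265% with all libraries.

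PARP9, PARP14 and DTX3L form another cluster, on chromosome 3, and encode ADP-ribosyltransferases and a ubiquitin ligase that partners PARP9. PARP9 had 125, 135 and 118 CPM at 37C and 113, 110.1 and 115 CPM at 41C (log2 change -0.16 ± 0.05, edgeR adjusted p = 0.196). The PARP9 groups did not overlap. DTX3L, which starts beside PARP9 on the other strand, had 234, 252 and 215 CPM at 37C and 233, 229 and 232 CPM at 41C (log2 change -0.01 ± 0.05). PARP14 had 184, 194 and 153 CPM at 37C and 172, 174 and 165 CPM at 41C (log2 change -0.06 ± 0.08). The exons of PARP9 and DTX3L share 217 bases, 2.43% of those of PARP9.

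LGALS3BP, a secreted glycoprotein that binds galectin, was the third member higher at an unadjusted p under 0.05. Its libraries had 302, 319 and 324 CPM at 37C and 344, 344 and 362 CPM at 41C. The groups did not overlap (1.11-fold; log2 change 0.15 ± 0.04, edgeR adjusted p = 0.115). IFI35 had 28.5, 33.4 and 31.1 CPM at 37C and 27.5, 28.4 and 28.7 CPM at 41C (log2 change -0.14 ± 0.08). IFI44, IFI6, a mitochondrial survival factor, and XAF1, a promoter of apoptosis, had log2 changes of -0.10 ± 0.11, -0.07 ± 0.13 and 0.29 ± 0.30. IFI27 and IFI44L, which often mark a strong interferon response, had 27 and 20 counts over the controls and 22 and 17 over the heated libraries. Their ratios were 0.78 (95% counting interval 0.42 to 1.42) and 0.81 (0.40 to 1.64), and such intervals cover counting error only.

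Per gene length, the members spanned a wide range of levels. The deposited FPKM (counts scaled by gene length and library size) at 37C ran from 745 ± 47.99 for IFITM3 to 0.00902 for MX2. IFITM1 (146 ± 13.8), LGALS3BP (144 ± 4.29) and UBE2L6 (137 ± 8.99) came next and did not differ beyond their spread. They were followed by IFITM2 (69.5 ± 1.34), ADAR (55.4 ± 0.724) and IFI16 (53.9 ± 6.37), and of these ADAR and IFI16 lay within their spread. IFIT3 (45.01 ± 3.08) stood above IFIT2 (33.3 ± 2.80) and TRIM22 (30.9 ± 3.47), while IFIT1 had 15.9 ± 0.797 FPKM. Under 1 FPKM were IFI27, CMPK2, MX1, HERC5, RSAD2, XAF1, ISG20, IFI44L and MX2. RSAD2, MX1 and IFI27 are among the ISGs that interferon is known to raise most.

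**Figure D3:**
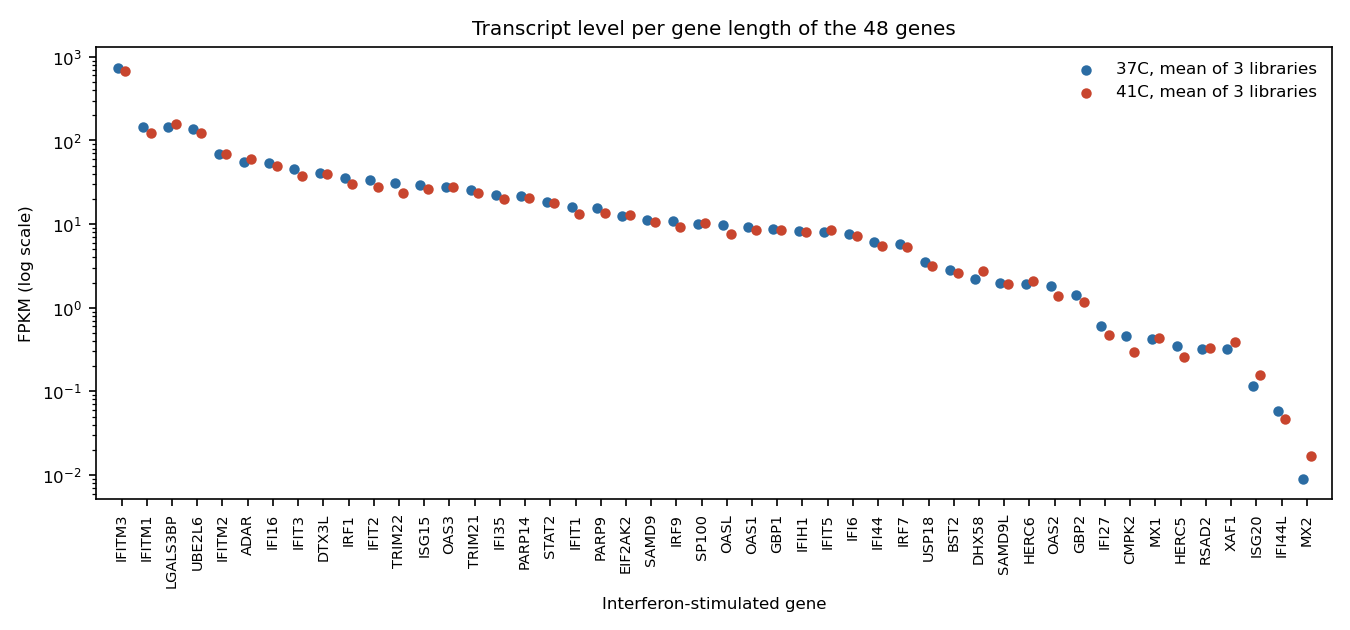
Mean FPKM of 3 libraries (vertical log axis) for each of the 48 ISGs, in order of the 37C level, with 37C in blue and 41C in red. IFITM3 stands alone at 745 FPKM at 37C, and the pairs of points lie close together across the range.

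One control library stood apart for these genes. In 37C replicate 2 the median of the 45 tested members lay 0.17 above their own mean over the 6 libraries on the log2 CPM scale, beside medians of -0.06 to 0.02 in the other libraries. That library was the highest of the 6 for 26 of the 45 members (57.8%), beside 16.5% of all 12056 genes. 41C replicate 1 was the lowest for 15 of the 45 (33.3%, beside 15.5% of all genes). With 37C replicate 2 left out, 28 of the 45 log2 changes were negative, their median was -0.05, and 0 members passed in either direction (edgeR, 17 genes called of 12155). The higher ISG level of that library moves with the direction of the group difference, and its part in it cannot be told apart from the temperature with 3 libraries per group. The totals were 19659112 to 19745664 counts at 37C and 20139202 to 20856144 at 41C.

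**Figure D4:**
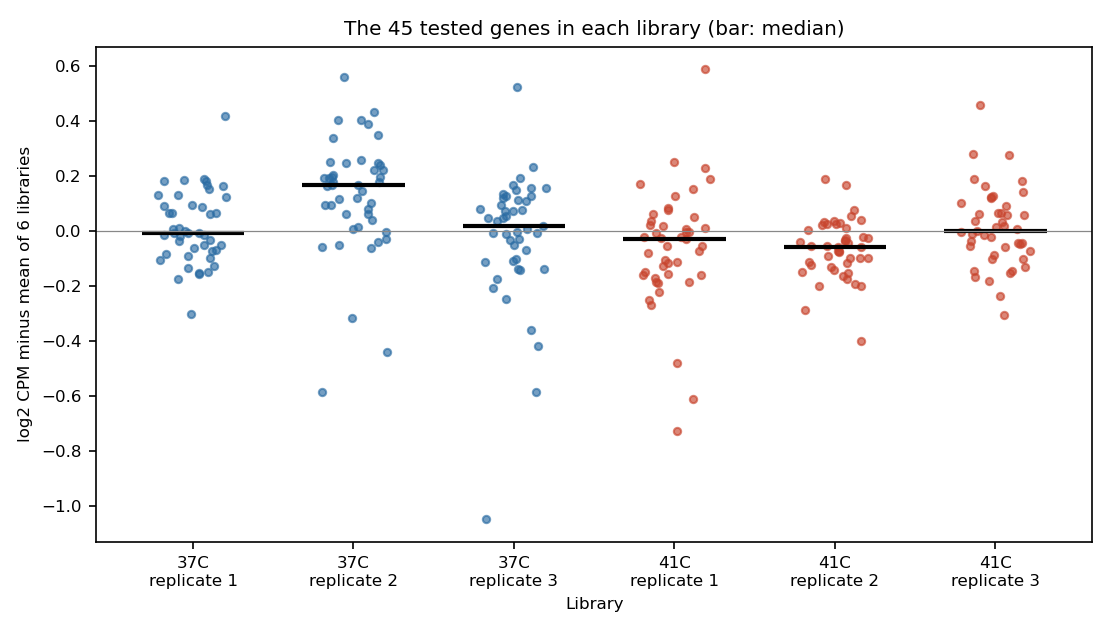
Each point is 1 of the 45 tested ISGs, placed at its log2 CPM minus its own mean over the 6 libraries (vertical axis), by library, with the median as a bar. The bar of 37C replicate 2 is at 0.17 and the other 5 lie between -0.06 and 0.02.

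The number of calls also moved with single libraries. The 2 lower members became 4 without 37C replicate 1 (IRF1, OASL, IFITM1 and TRIM22), where the share of all genes called lower also went from 0.265% to 0.856%, and 8 without 37C replicate 3, which were IFI16, IFIT1, IFIT2, IFIT3, SAMD9, PARP9, PARP14 and TRIM22. They became 0 when 37C replicate 2 or any 1 of the 3 heated libraries was left out. The share of all genes called lower fell in these fits too. It was 0.0576% without 37C replicate 2, and 0.0493%, 0.00823% and 0.0904% without 41C replicates 1, 2 and 3. Without 37C replicate 3, ADAR and LGALS3BP were called higher, and 2.65% of all genes were called lower and 3.97% higher. IFIT1 had adjusted p-values of edgeR from 0.000670 to 0.267 over these 6 fits and log2 changes from -0.29 to -0.24. TRIM22 had log2 changes from -0.43 to -0.28 and passed in 2 of the 6.

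Gene length was examined because levels in these libraries moved with it. Across all 12056 genes the deviation of a library from the mean had a Spearman rho with gene length of -0.42 in 37C replicate 3 and of -0.04 to 0.22 in the other 5, a description across genes that share a library. The median log2 change of all genes rose from -0.06 in the shortest of 10 length classes, up to 1551 bases, to 0.06 in the longest. The tested members were slightly short, with a median of 3720 bases beside 4038 for all genes. Of the 23 shorter members 20 had a negative log2 change (median -0.12), beside a median of -0.02 over all genes in their range of length. Of the 22 longer ones 12 were negative (median -0.02, beside 0.02). Across the 45 members the rho of log2 change with length was 0.35, and 0.25 across all genes.

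With each library corrected for its own trend on length, TRIM22 and IFIT1 still passed. TRIM22 then fell by 0.35 ± 0.07 on the log2 scale (SE; edgeR adjusted p = 0.0155) and IFIT1 fell by 0.26 ± 0.06 (SE; edgeR adjusted p = 0.0249). LGALS3BP rose in that fit (0.19 ± 0.04, edgeR adjusted p = 0.0447), and 1 member was then higher. Of all 12056 genes, 0.299% were called lower and 0.647% higher in that fit. The shortest members moved most: IFITM3, of 611 bases, went from -0.11 to 0.01, ISG15, of 637 bases, from -0.16 to -0.04, and IFITM1, of 668 bases, from -0.23 to -0.11. The median over the 45 was -0.05 after the correction, beside 0.01 for all genes. In that fit 29 of the 45 were negative in sign, but not all were the same members as before. IFITM2, IFITM3, GBP1 and IFI6 turned positive, and SAMD9L turned negative. The share of all genes that were negative in that fit was not counted. 37C replicate 2 was still the highest library for 25 of the 45. With the correction, 0 members were lower when 37C replicate 2 or any 1 heated library was left out. In those fits 0.0165% to 0.0658% of all genes were called lower. Without 37C replicates 1 and 3, 3 and 8 members were lower, beside 0.527% and 2.44% of all genes.

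**Figure D5:**
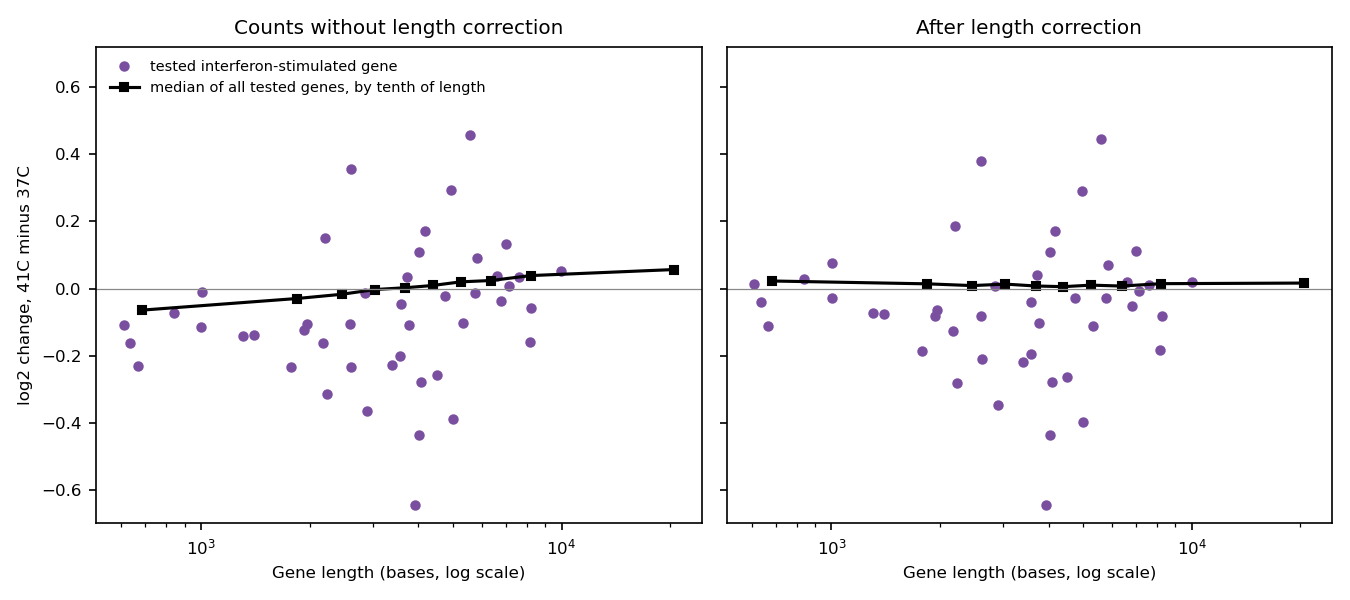
Log2 change at 41C relative to 37C (vertical axis) against gene length in bases (horizontal log axis) for the 45 tested ISGs (points) and the median of all tested genes in each of 10 length classes (squares), without and with the length correction. The line of all genes goes from -0.06 to 0.06 without the correction and lies between 0.0056 and 0.023 with it, and the shortest ISGs move up to near 0.

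Members that held the ISRE core in the promoter window and members that did not are set side by side as a description. Tested members not matched by symbol in the set of RefSeq promoters used are in neither group, among them TRIM22, IFIT2, OAS2, OASL and DHX58. Of the 17 tested genes with it, 13 had a negative log2 change, with a median of -0.07 and a median length of 2849 bases. Of the 19 without it, 11 were negative, with a median of -0.02 and a median length of 4752 bases. After the length correction the medians were -0.04 and -0.03. Both groups held members at an unadjusted p under 0.05 in each direction, 3 lower and 1 higher with the core and 5 lower and 1 higher without it. Over all genes tested 6.12% were lower and 7.58% higher by that measure, and 49.1% had a negative log2 change, so 1 higher gene in each group is near the share of all genes. By position, 28 of the 48 genes lay in 11 clusters of members less than 1000000 bases apart.

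The genes that make, receive and relay interferon were listed apart from the members, and 0 of 24 tested passed in either direction (edgeR, with 0 higher and 2 lower at an unadjusted p under 0.05). The shares over all genes tested were 1.09% called in either direction, and 6.12% lower and 7.58% higher at that unadjusted p. The 24 genes are too few to set against them. Among the ligands, IFNE, an epithelial type I interferon, was counted 6, 4 and 3 times in the controls and 5, 14 and 10 times after heat. Its groups overlapped. The pooled counts were 13 and 29 (ratio 2.14, 95% counting interval 1.08 to 4.47). That interval covers counting error only and not the spread between libraries. Of the 9 ligands listed, IFNE was the only one with a row in the count table, and it was too scarce to test. The type I receptor chains IFNAR1 and IFNAR2 had 57.3 ± 5.20 and 19.6 ± 0.558 CPM at 37C and 55.7 ± 1.998 and 19.74 ± 0.253 CPM at 41C. The kinases JAK1 and TYK2 had log2 changes of -0.02 ± 0.05 and 0.04 ± 0.06.

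IFNGR1, the ligand-binding chain of the type II receptor, had 69.3, 71.2 and 67.4 CPM at 37C and 62.7, 59.3 and 61.6 CPM at 41C. Its groups did not overlap, and it did not pass (log2 change -0.18 ± 0.06, edgeR adjusted p = 0.147). SOCS1, a feedback inhibitor of JAK kinases, was counted 20, 23 and 23 times in the controls and 14, 13 and 14 times after heat (log2 change -0.73 ± 0.30, edgeR adjusted p = 0.296). IRF3, the factor that starts interferon transcription, had a log2 change of -0.09 ± 0.06.

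Keratinocyte markers were abundant in every library. The summed level of 8 keratinocyte markers was 6561 to 7149 CPM at 37C and 7533 to 7860 CPM at 41C. Of the 8, 3 were called higher, beside 0.821% of all genes tested. Fibroblast markers summed to 3.11 to 4.30 CPM, melanocyte markers to 4.91 to 6.21 CPM and leukocyte markers to 13.5 to 17.7 CPM over both groups. Almost all of the leukocyte sum came from CD68. Endothelial markers summed to 18.8 to 30.3 CPM, most of it from CDH5, and 0 markers of these 4 cell types passed.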

How the data were processed

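Libraries were made from total RNA with a TruSeq Stranded mRNA kit after mirVana isolation, per the labels' protocols. The submitters' processing notes list Trimmomatic 0.36, HISAT2 and GRCh38.p13. The program that counted reads, its annotation and its use of strand were not found in the labels or headers. The authors deposited raw counts of reads per gene symbol (19659112 to 20856144 per library) and FPKM values made from the same counts, whose ratio gave each gene's length.

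Counts were tested at 41C against 37C with edgeR 4.0.16 in R 4.3.3 (filterByExpr, TMM, robust quasi-likelihood, two-sided), with Benjamini-Hochberg adjustment over 12056 genes at 0.05. With 3 libraries against 3, an exact permutation test of 1 gene cannot go below p = 0.1. CPM are TMM-scaled, with mean ± SD; log2 changes carry ± SE. The length correction removed from each library a spline (4 degrees of freedom) of its log2 deviation on log length. Alternatives were DESeq2 1.42.0, limma 3.58.1 (voom; log2(FPKM + 1) and log2(FPKM + 0.1)), other scaling and filters, a replicate block, the length correction and each library left out; the length correction with each library left out was added after seeing the data. Values per library are given for members past the threshold, members with an unadjusted p under 0.05 and the 2 members of each role with the most counts; a few others were named after their values were seen. The members and lists were chosen with earlier results of these data known. Procedures were tested on simulated data. One gene of the interferon pathway list is not reported here.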

Additional observations from a re-analysis of the deposited data

How the results depend on the processing

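The count of 2 lower and 0 higher members held with limma-voom, DESeq2 size factors in edgeR and a CPM filter of 1 in 3 libraries. DESeq2 called 3 lower (IFIT2, IFIT3, TRIM22) and 1 higher (LGALS3BP), with 253 genes in all (0.442% of 15379 genes lower and 1.2% higher). It gave no adjusted p to IFIT1, IRF9, DHX58, OAS1, OAS2, OASL, ISG15, GBP1, GBP2, CMPK2, RSAD2, SAMD9, SAMD9L and IFI35. The DESeq2 counts of members do not cover these genes. Without a filter 4 members were lower of 284 genes called, and with upper-quartile factors 3 of 110 (57 genes higher and 53 lower, against 99 and 32). The shares of all genes called lower were 0.65% without a filter and 0.44% with upper-quartile factors, beside 0.265% with the main settings. With limma on log2(FPKM + 1) and log2(FPKM + 0.1), 0 members were lower, of 11 and 40 genes called; at an unadjusted edgeR p under 0.05 there were 12. The length correction gave 1 higher member, with 0.647% of all genes called higher. Leaving out 1 library gave 0 to 8 lower and 0 to 2 higher members, 5 to 805 genes in all and medians of -0.14 to -0.05; with the length correction as well, 0 to 8 lower, 0 to 2 higher, 6 to 1029 genes (26, 34 and 36 without 37C replicate 2, 41C replicate 1 and 41C replicate 3) and medians of -0.09 to -0.02 (-0.021 and -0.035 for the first 2 of these). Members near 0 changed sign: SAMD9L was at -0.011 with upper-quartile factors and -0.0076 with the length correction, which put IFITM3 at 0.015 and GBP1 at 0.0066. Over the libraries left out STAT2 ran from -0.040 to 0.00028, GBP1 from -0.081 to 0.10, RSAD2 from -0.15 to 0.23, SAMD9 from -0.20 to 0.051, SAMD9L from -0.22 to 0.19, PARP14 from -0.15 to 0.011 and DTX3L from -0.069 to 0.040. With the replicate block 5 members were lower and 2 higher of 438 genes called (1.17% of all genes lower and 2.46% higher). However, same-numbered libraries shared only a number (correlations of deviations 0.08, -0.02 and 0.08), and 2 of the 3 controls correlated best with their own number. The cause of these shifts was not tested.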
